A study of Mus musculus with 16 samples.

Results

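Gene expression was compared between hearts of mouse embryos that had lost 1 of their 2 Ing4 alleles and wild-type hearts, with Ing5 intact on both sides. The comparison used 8 of the 16 hearts sequenced at embryonic day 10.5: 4 Ing4+/- Ing5+/+ hearts, called Ing4+/- here, and 4 Ing4+/+ Ing5+/+ hearts, called wild-type. They were chosen by their labelled genotype alone. The other 8 hearts, 4 Ing4+/- Ing5-/- and 4 Ing4+/+ Ing5-/- (Ing5-/- below), served to estimate the spread and as a second setting for the same allele loss. The alleles are germline genotypes of whole embryos as far as the labels go. The sources used here state neither the strain nor the sex nor the deleted part of either gene. Sex is read below from Xist and Ddx3y.

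ING4 and ING5 are related PHD finger proteins that bind histone H3 methylated at lysine 4 and sit in acetyltransferase complexes built on the HBO1 enzyme (Kat7) with JADE or BRPF scaffolds. ING5 is also a subunit of the MOZ and MORF complexes (Kat6a and Kat6b). These complexes acetylate histones H3 and H4, marks found at active genes. In the heart at this stage, a tube of trabecular and compact myocardium is lined by endocardium and is being covered by epicardium.

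The 8 libraries held 19753100 to 29191742 reads assigned to genes, and 15785 genes were tested. Each heart came from 1 embryo, and the 4 Ing4+/- embryos came from litters 3, 4, 6 and 7, the 4 wild-type embryos from litters 4, 5, 5 and 6. The heart Ing4+/- 4 stood apart: its log2 CPM differed from its group mean by 0.596 (root mean square over genes), against 0.281 to 0.362 in the other 7 hearts, and it lay at 87.4 on the first principal component. That heart also held 15.99 CPM of Xist, transcribed from the inactive X chromosome, beside 67.5 CPM of the Y-linked gene Ddx3y. In the other 7 hearts either Xist was under 1 CPM or Ddx3y was. By these genes Ing4+/- 3, wild-type 2 and wild-type 4 were female, with Xist at 372, 427 and 398 CPM. Male were Ing4+/- 1, Ing4+/- 2, wild-type 1 and wild-type 3, with Ddx3y at 57.9 to 71.0 CPM, so sex was not balanced between the genotypes. Ing4+/- 4 further held 14.1 CPM of the liver and yolk sac gene Afp, which was at 6.04 CPM in Ing4+/- 2 and under 1 CPM in the other 6 hearts. The liver and endoderm markers Alb and Epcam did not single that heart out. Alb was at 0.828 CPM there and 1.92 CPM in Ing4+/- 2, and Epcam was at 0 CPM there and up to 0.667 CPM elsewhere in the group. Ing4+/- 4 also held 1.00 CPM of the muscle progenitor gene Myf5, which was at 0 in the other 7. The cardiomyocyte marker Tnnt2 was at 2236 to 2409 CPM in Ing4+/- hearts and 2255 to 2670 CPM in wild-type hearts. Myod1, which defines skeletal muscle, had no read in the 8 hearts. Myog, another skeletal muscle marker, had a few reads, at most 0.109 CPM in Ing4+/- hearts and 0.035 CPM in wild-type hearts.

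Ing4 itself was on average lower in Ing4+/- hearts, but the difference did not exceed the spread. Ing4 (Entrez 28019, GRCm38 chr6:125039848-125049265) had 36.3, 33.5, 32.0 and 34.8 CPM (counts scaled to each library's TMM-adjusted total) in Ing4+/- hearts, against 42.9, 28.2, 44.4 and 42.6 CPM in wild-type hearts. The groups overlapped because the library labelled wild-type 2 had the lowest value of the 8, below every Ing4+/- heart. The log2 fold change was -0.21 ± 0.12 (SE, n = 4 each; edgeR quasi-likelihood test, adjusted p = 0.956), with a 95% interval of 0.723 to 1.03-fold. A level at 0.5 of wild-type, which 1 lost allele with no transcript and no compensation would give, lies outside this interval. Without the library labelled wild-type 2 the log2 fold change was -0.35, still not called. Within litter 4 it was -0.36 and within litter 6 it was -0.41, with 1 heart of each genotype. Reads from a mutant transcript that escapes the deletion would be counted, so the level is a limited check of the genotype labels, and the library labelled wild-type 2 goes against its label on this check.

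Ing5, with both alleles kept on both sides, had 35.4, 37.2, 33.7 and 42.3 CPM in Ing4+/- hearts, against 35.2, 36.9, 28.9 and 33.3 CPM in wild-type hearts. The groups overlapped, and the log2 fold change was 0.15 ± 0.13 (SE, n = 4 each; edgeR adjusted p = 0.956; 95% interval 0.923 to 1.33-fold). A rise of Ing5 above 1.33-fold lay outside that interval. All 17 tested genes of the ING family and the MYST acetyltransferase complexes had intervals within 1.5-fold. Their median log2 fold change was 0.00, beside 0.01 over all genes tested. The enzyme gene Kat7 had a log2 fold change of -0.00, the scaffold genes Jade1 and Brpf1 had 0.07 and 0.08, and Kat6a had -0.07. Brd1, a BRPF family scaffold, had the smallest p of the group. It was at 87.4 to 89.1 CPM in Ing4+/- hearts and 92.9 to 97.2 CPM in wild-type hearts, a log2 fold change of -0.11 ± 0.05 (SE; edgeR adjusted p = 0.956).

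**Figure D1:**
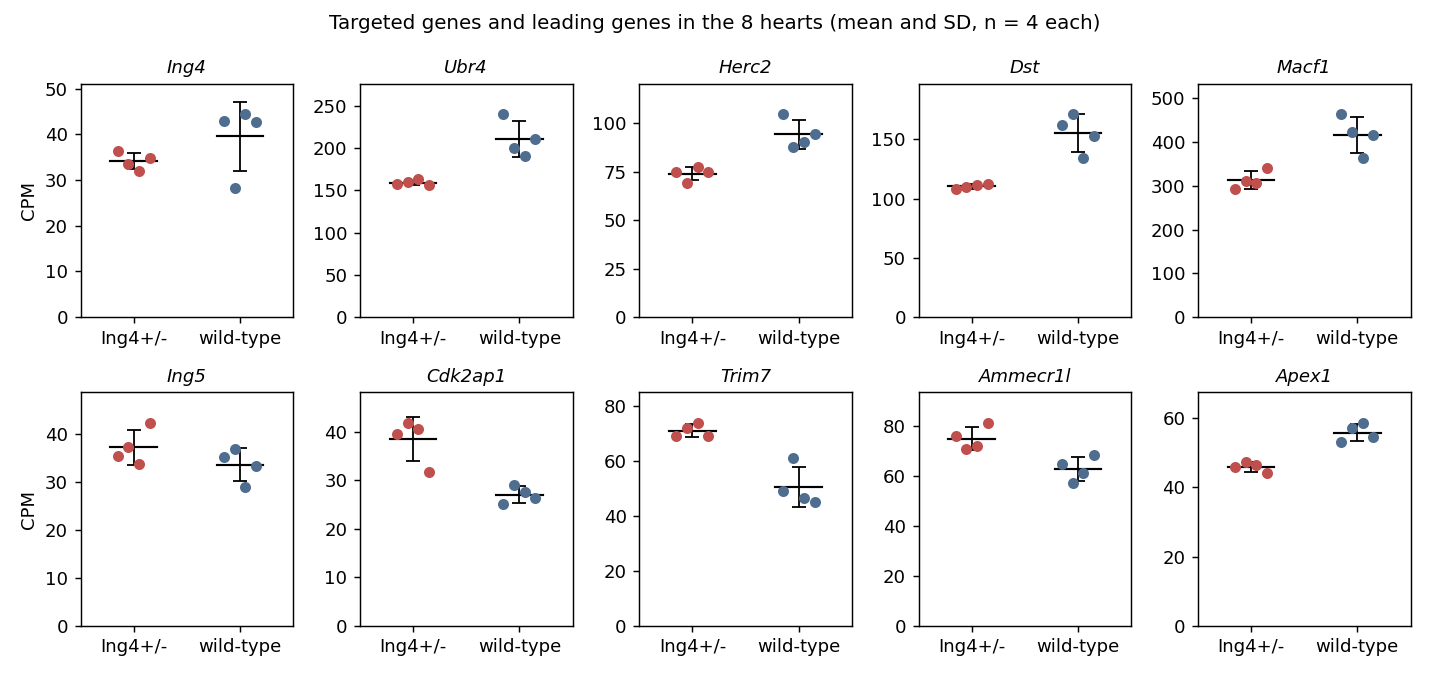
CPM of 10 genes in each of 4 Ing4+/- (left of each panel) and 4 wild-type hearts; each point is 1 heart, the line and bar are the mean and SD, and all axes start at 0. Ing4 and Ing5 overlap between the genotypes, while Herc2 lies at 69.2 to 77.2 CPM in Ing4+/- hearts and 87.9 to 104.8 CPM in wild-type hearts.

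No gene was called between Ing4+/- and wild-type hearts. edgeR's quasi-likelihood test called 0 of 15785 genes (0%) at an adjusted p under 0.05, limma-voom called 0, and DESeq2 called 3, Cdk2ap1 and Trim7 among them. At an unadjusted p under 0.05 edgeR passed 748 genes (4.74%), 399 higher (2.53%) and 349 lower (2.21%) in Ing4+/- hearts. The 4 Ing4+/- hearts all lay on 1 side of the 4 wild-type hearts for 597 genes (3.78%). With litter as a block, edgeR called 0 and passed 128 genes (0.811%) at the unadjusted level, and 2 of the 7 litters held hearts of both genotypes. In the fit without a block the smallest adjusted p, 0.129, was that of Cdk2ap1 and 1 other gene. A fit of only the 8 hearts called 1 gene, and the fit without Ing4+/- 4 called 1 gene, Cdk2ap1 (adjusted p = 0.00872).

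The size of change that these hearts exclude depended on the expression level. Over all 15785 genes, the 95% interval of the fold change lay within 1.5-fold in either direction for 68.6% and within 2-fold for 81.7%. The median half-width of the interval was 0.26 on the log2 scale. For the 2365 genes over 100 CPM the median half-width was 0.17 on the log2 scale (1.13-fold), and 98.3% had intervals within 1.5-fold. The 6016 genes of 20 to 100 CPM were close to that, with 0.19 (1.14-fold) and 97.0%. Among the 3046 genes of 5 to 20 CPM the median half-width was 0.32 on the log2 scale, and 78.0% were within 1.5-fold. At 1 to 5 CPM, where 2304 genes lay, it was 0.63 (1.55-fold), and 65.0% were within 2-fold. Under 1 CPM, where 2054 genes lay, it was 1.29 (2.45-fold), and 4.67% were within 2-fold, so even a doubling was not detectable at this depth for most of them.

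A test of equivalence asked the same with an error rate over all genes. Paired one-sided tests against the limits, adjusted over the 15785 genes, placed 11107 genes within 1.5-fold (70.4%) and 13222 within 2-fold (83.8%). Intervals widened to hold for all genes at once lay within 2-fold for 54.1%. Fitted values beyond 2-fold occurred for 307 genes, of which 279 were under 1 CPM, and none of the 307 was called. The share of genes with an interval within 1.5-fold depended on the fit. It was 60.7% with litter as a block (9842 genes placed within 1.5-fold by the equivalence test), 50.8% of 21478 genes with no filter on low counts, 76.0% of genes with at least 1 CPM in 4 libraries and 73.2% with only the 8 hearts. With each of the 16 libraries left out in turn it lay between 64.4% and 69.9%.

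**Figure D2:**
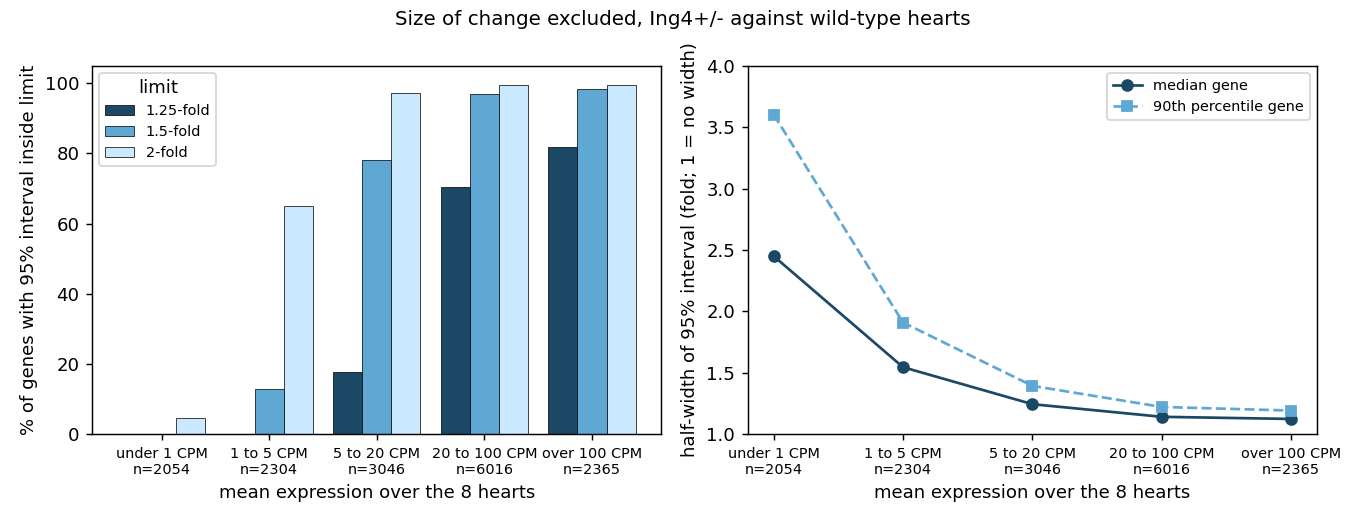
Size of change excluded by mean expression over the 8 hearts. Left, the percentage of genes whose 95% interval lies within each of the 3 limits named in the key (bars from 0); right, the half-width of the interval as a fold for the median and the 90th percentile gene, where 1 means no width. At 20 to 100 CPM 97.0% of genes lie within 1.5-fold, and under 1 CPM 4.67% lie within 2-fold.

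The heart's own genes fell on the precise side of this range. Of 29 cardiomyocyte genes, 26 had intervals within 1.5-fold and all 29 within 2-fold. The same held within 1.5-fold for all 26 tested genes of oxidative phosphorylation, all 26 of DNA replication and all 25 of mitosis, and for 31 of 33 ribosomal protein genes. Epicardial genes were less precise, with 7 of 27 within 1.5-fold and 22 of 27 within 2-fold. Of the erythroid genes 3 of 18 were within 2-fold, and their summed level was 5299 to 20563 CPM in Ing4+/- hearts and 9516 to 12584 CPM in wild-type hearts. Of the macrophage genes 5 of 18 were within 2-fold.

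Several of the leading lower genes encode giant proteins. Ubr4, a ubiquitin ligase of the N-degron pathway, had 157, 160.3, 164 and 156 CPM in Ing4+/- hearts, against 240.4, 199.6, 191 and 211 CPM in wild-type hearts (log2 fold change -0.40 ± 0.09, SE). Dst, a cytolinker of the plakin family, had 108, 110.0, 111 and 112 CPM in Ing4+/- hearts, against 162, 171, 134 and 153 CPM in wild-type hearts. Macf1, which links actin to microtubules, had 294, 311, 306 and 342 CPM in Ing4+/- hearts, against 464, 422, 365 and 416 CPM in wild-type hearts. For each of these 3 genes every Ing4+/- heart was below every wild-type heart, and the log2 fold changes of Dst and Macf1 were -0.49 ± 0.12 and -0.41 ± 0.10 (SE). Herc2, a giant ubiquitin ligase gene, was at 69.2 to 77.2 CPM in Ing4+/- hearts and 87.9 to 104.8 CPM in wild-type hearts. With each library's trend over gene length removed, the log2 fold changes were nearer 0: -0.25 for Ubr4, -0.22 for Dst, -0.14 for Macf1 and -0.21 for Herc2, against -0.35 for Herc2 with the trend kept. That trend was fitted with these genes included, so a shift shared by long genes is taken out by construction. None of these 4 genes was called, with edgeR adjusted p of 0.733 or 0.807.

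Other leading lower genes were short. Apex1, an endonuclease of base excision repair, was at 44.1 to 47.3 CPM in Ing4+/- hearts and 53.1 to 58.7 CPM in wild-type hearts (log2 fold change -0.28 ± 0.07, SE). Avpi1 had a log2 fold change of -0.59 ± 0.13 (SE). Gng5-ps and Chchd2-ps, pseudogenes that share sequence with their parent genes, had log2 fold changes of -0.31 ± 0.08 and -0.52 ± 0.13 (SE), and reads may have been split between them and their parents. All 4 had an edgeR adjusted p of 0.733 or 0.807.

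Among higher genes, Cdk2ap1 came first, a gene for a protein that binds the kinase CDK2 and is found in the NuRD remodelling complex. Cdk2ap1 (Entrez 13445, GRCm38 chr5:124345439-124354628) had 39.5, 41.9, 40.7 and 31.8 CPM in Ing4+/- hearts, against 25.04, 29.1, 27.7 and 26.3 CPM in wild-type hearts. The groups did not overlap, and Ing4+/- 4 was the lowest Ing4+/- heart. The log2 fold change was 0.51 ± 0.09 (SE; edgeR unadjusted p = 1.63e-05, adjusted p = 0.129; 95% interval 0.33 to 0.69 on the log2 scale). Over the alternative fits the adjusted p ran between 0.000484 and 1.00, and the log2 fold change stayed between 0.47 and 0.63. Trim7, a ubiquitin ligase that binds glycogenin, had 69.1, 72.0, 73.8 and 68.9 CPM in Ing4+/- hearts, against 49.0, 60.9, 46.3 and 45.2 CPM in wild-type hearts (log2 fold change 0.49 ± 0.10, SE; edgeR adjusted p = 0.647).

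The other 8 leading higher genes fell into 5 at higher levels and 3 at low levels. Ammecr1l, Mex3c, Fam214b, Sec22c and Lgals8 had log2 fold changes of 0.26, 0.29, 0.29, 0.32 and 0.55, with no overlap between the genotypes. The low genes were Th, Barx1 and Gm3173. Th, tyrosine hydroxylase of catecholamine synthesis, had 1.69, 2.64, 2.42 and 7.41 CPM in Ing4+/- hearts, against 1.30, 0.932, 1.06 and 0.917 CPM in wild-type hearts, a log2 fold change of 1.74 ± 0.42 (SE) that was 1.09 without Ing4+/- 4. Barx1, a homeobox gene of stomach mesenchyme and tooth, had 2.58 to 4.88 CPM in Ing4+/- hearts and 1.73 to 2.32 CPM in wild-type hearts. Gm3173 had 2.96 to 5.40 CPM in Ing4+/- hearts and 1.93 to 2.55 CPM in wild-type hearts, and reads may be shared with other predicted genes. The leading genes on both sides were selected by their p from this comparison, so their separation is a description of the selection and no further evidence.

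The deposited table gives a length in bases for each gene model, and the leading genes were set against it. The 50 lower genes with the smallest p split towards both ends of the length range, while the 50 higher genes did not. Lower genes had a median length of 1126 bases, with quartiles of 743 and 3197, against 2746 bases, with quartiles of 1673 and 4221, over all genes tested. Of the 50 lower genes, 28 lay in the shortest quintile (up to 1454 bases), 11 in the longest (from 4637 bases), and 11 were over 10000 bases, a size that 1.83% of all genes had. Of the 50 higher genes, with a median of 3116 bases, 10 lay in the shortest quintile, 11 in the longest, and 0 were over 10000 bases. In this fit 7 of the 50 lower genes were over 15000 bases, and more of them were short than long. Which end held more depended on the fit. With only the 8 hearts, 22 of the 50 lower genes were over 10000 bases and 17 in the shortest quintile, with litter as a block 16 and 14, and without Ing4+/- 4, Ing5-/- 1 and Ing4+/- Ing5-/- 2, which stood apart, 30 and 12. Single hearts moved both counts as well: over 10000 bases there were 19 without Ing4+/- 4 and 18 without wild-type 3, with 19 and 18 in the shortest quintile. Without Ing4+/- 3, wild-type 1 or wild-type 4 there were 6, 6 and 5 over 10000 bases, with 34, 31 and 34 in the shortest quintile. Among the 8 lower genes named here, 4 were over 15000 bases and 4 were at or under 1454 bases. The 10 named higher genes were 1250 to 5783 bases long.

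With the longest GENCODE M21 transcript as the measure of length, the 40 lower genes that had one had a median of 2620 bases, and 12 were over 10000, while 1 of 45 higher genes was. Pseudogenes were 7 of the 50 lower genes, against 1 of the 50 higher genes and 2.56% of all genes tested. Of 404 pseudogenes tested, 63.1% had a fold change below 0, against 48.4% of all genes. At an unadjusted p under 0.05 25 were lower (6.19%, beside 2.21% of all genes) and 7 higher (1.73%, beside 2.53%). Pseudogenes were short, with a median of 817 bases and 300 of the 404 in the shortest quintile, where 61.2% of all genes had a fold change below 0 and 5.48% were lower at that level.

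**Figure D3:**
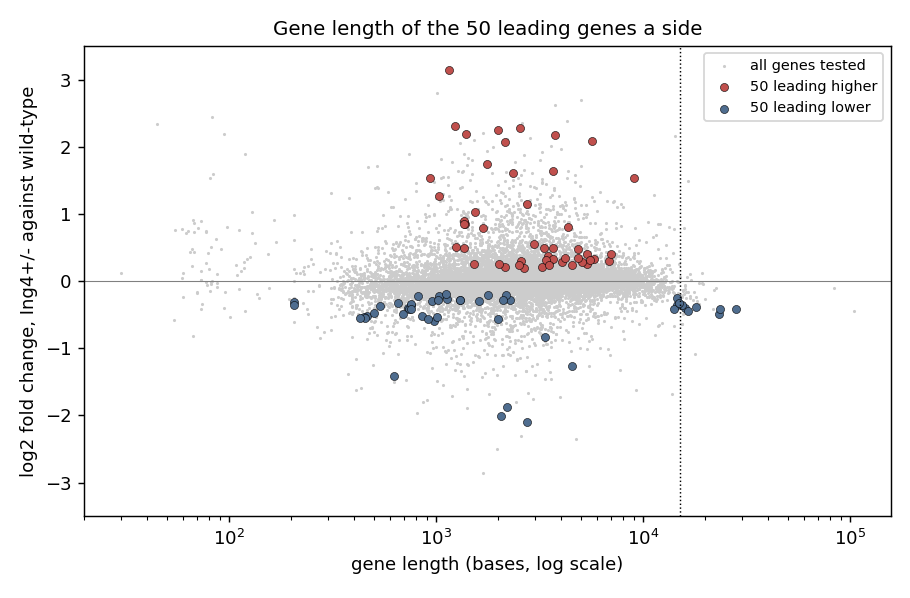
Log2 fold change (Ing4+/- against wild-type) against gene length in bases (log scale) for all genes tested (grey; 4 genes lie outside the plotted range) and the 50 leading higher and 50 leading lower genes; the dotted line marks 15000 bases. The lower genes form a short group and a group around and beyond 15000 bases, with 28 in the shortest quintile and 7 over 15000 bases, while no leading higher gene exceeds 10000 bases.

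Genes over 15000 bases had lower values in Ing4+/- hearts beyond the named few. This class was chosen after its values were seen and is given as a description. Of 50 such genes tested, 43 (86.0%) had a log2 fold change below 0, against 48.4% of all genes, and the median was -0.22. At an unadjusted p under 0.05, 18 were lower (36.0%) and 0 were higher, beside 2.21% and 2.53% of all genes, and 0 were called. The 4 Ing4+/- hearts lay below the 4 wild-type hearts for 16 of the 50 (32.0%, against 2.04% of all genes). Within litter 4, 45 of the 50 were lower in the Ing4+/- heart, and within litter 6, 39 were, in hearts that also enter the comparison the class was chosen from. Without Ing4+/- 4 the number at that level was again 18 and the median of the class was -0.25, while without wild-type 1 the number was 11 and the median -0.16. The class was not low in expression, with a median of 74.7 CPM, and its interval half-width had a median of 1.19-fold.

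These genes belong to several kinds. Sarcomere and calcium release genes included Ttn (titin) and Ryr2 (the ryanodine receptor of the sarcoplasmic reticulum). Ttn had 689, 613, 592 and 670.5 CPM in Ing4+/- hearts, against 1019, 958, 644 and 879 CPM in wild-type hearts. The groups overlapped at wild-type 3, and the log2 fold change was -0.45 ± 0.20 (SE; edgeR unadjusted p = 0.0391, adjusted p = 0.956). Ryr2 had a log2 fold change of -0.25 ± 0.09 (SE) and overlapped by 1 Ing4+/- heart. Linkers of the cytoskeleton and the nuclear envelope were Dst, Macf1, Plec, Syne1 and Syne2, with log2 fold changes of -0.49, -0.41, -0.28, -0.38 and -0.42. The histone H3 lysine 4 methyltransferases Kmt2d and Kmt2c had -0.27 and -0.21. Ubiquitin ligases were Ubr4, Herc2, Herc1, Hectd4, Birc6 and Mycbp2, with -0.40, -0.35, -0.30, -0.24, -0.25 and -0.23, and others were Zfhx3 with -0.44 and Ahnak with -0.34. Other genes of that size differed little: Slc8a1, the cardiac sodium-calcium exchanger, had 1602 to 1953 CPM in Ing4+/- hearts and 1634 to 1919 CPM in wild-type hearts, with a log2 fold change of -0.02 ± 0.12 (SE). Aak1, Itsn1 and Lpp had -0.03, -0.05 and -0.06, while Xpo7, Strbp and Kalrn were above 0 with 0.06, 0.07 and 0.10. Zan and Hydin, with means of 0.34 and 0.58 CPM, were higher still with 1.49 ± 0.79 and 0.79 ± 0.63 (SE).

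Across the whole range of lengths the fold change followed an arch, of which the short side did not keep its sign within litters. The median log2 fold change was -0.07 for genes up to 500 bases, -0.06 for those beyond that up to 1000, -0.03 up to 2000, 0.01 up to 3000, and 0.03 both up to 5000 and up to 7497. It was -0.00 up to 10000 bases, -0.05 up to 15000 and -0.22 beyond. Within litter 6 the median was 0.10 up to 500 bases and 0.06 up to 1000, and it fell with each longer class to -0.27 over 15000 bases. Within litter 4 it was -0.02 and -0.01 in the 2 shortest classes and -0.36 in the longest. With litter as a block the median of genes up to 1000 bases was 0.01, against -0.07 without the block, and that of genes over 15000 bases was -0.25. In the class between 10000 and 15000 bases, 19 of 239 genes (7.95%) were lower at an unadjusted p under 0.05 and 3 were higher. Across genes, which are not independent replicates, Spearman's rho of length with the log2 fold change was 0.17 for the 13125 genes up to 5000 bases and -0.17 for the 2660 longer genes.

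Single hearts were then compared by a length index, the median centred log2 CPM of the longest quintile of genes minus that of the shortest quintile. It was 0.103, -0.006, -0.009 and 0.177 in Ing4+/- hearts, against 0.020, -0.125, -0.021 and 0.088 in wild-type hearts. The groups overlapped widely, with Ing4+/- 4 highest and the library labelled wild-type 2 lowest. The difference of means was 0.08 on the log2 scale (exact permutation test, two-sided, p = 0.286; the smallest p that 4 against 4 allows is 0.0286). Within litter 4 the difference was -0.03 and within litter 6 it was -0.10, so it did not keep its sign.

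The same index for genes over 15000 bases against all others was -0.224, -0.159, -0.195 and -0.071 in Ing4+/- hearts, against 0.154, 0.035, -0.081 and 0.088 in wild-type hearts. Wild-type 3 lay among the Ing4+/- hearts and the other 3 wild-type hearts above them all. The difference was -0.21, with no test because the class was chosen from these values, and it was -0.31 within litter 4 and -0.28 within litter 6. Reads of these genes made up 0.613 to 0.665% of each Ing4+/- library and 0.638 to 0.768% of each wild-type library. With each library's length trend removed, the median of the class was -0.06, 30 of 50 were below 0, and 5 were lower and 2 higher at an unadjusted p under 0.05, in place of 18 and 0. The class entered the fit of that trend, so the loss of a shift shared by its genes was built in and is no further evidence.

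**Figure D4:**
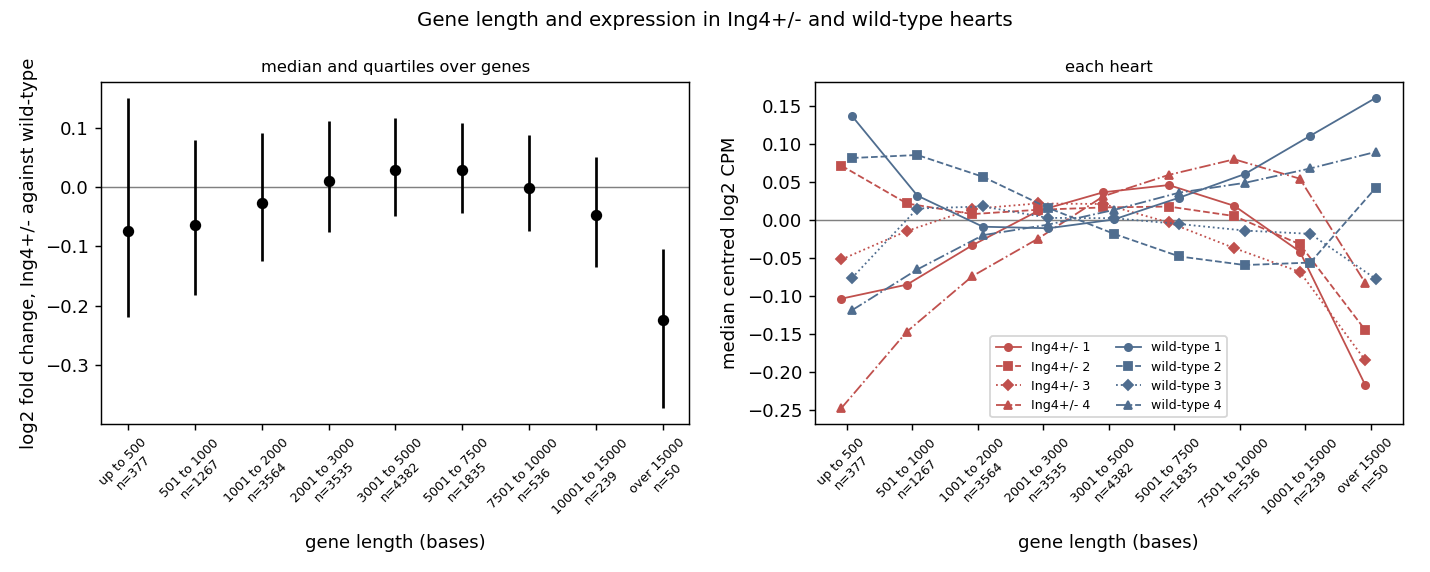
Left, median (point) and quartiles (line) over genes of the log2 fold change, Ing4+/- against wild-type, in 9 classes of gene length in bases. Right, the median centred log2 CPM of each class in each of the 4 Ing4+/- and 4 wild-type hearts; the medians arch over length and reach -0.22 over 15000 bases, where the hearts differ within each genotype too.

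Hearts without Ing5 gave the same allele loss in 8 other embryos. Ing4 there had 35.7, 36.2, 32.5 and 32.8 CPM in Ing4+/- Ing5-/- hearts, against 60.7, 52.0, 47.8 and 43.5 CPM in Ing5-/- hearts, a log2 fold change of -0.57 ± 0.12 (SE; edgeR adjusted p = 0.348). The interaction, the difference between the 2 settings, was -0.36 ± 0.17 for Ing4 (SE; edgeR adjusted p = 0.819). Of the 10 named higher genes, 5 had the same sign in hearts without Ing5, and 0 of those had an unadjusted p under 0.05, as 2.68% of all genes did in that direction. Of the 8 lower genes named here, 7 had the same sign, 2 of them (Dst and Macf1, both -0.29) at an unadjusted p under 0.05, as 4.06% of all genes were. Of the 50 leading genes a side, 24 higher (48.0%) and 28 lower (56.0%) had the same sign, beside 49.4% of all genes. Cdk2ap1 had a log2 fold change of -0.13 ± 0.09 there (SE), and the interaction was -0.64 ± 0.12 (SE; edgeR adjusted p = 0.232).

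The named genes were chosen by their p in Ing4+/- against wild-type hearts, which is 1 of the 2 comparisons that make up the interaction. That choice favours an interaction of the other sign, for Cdk2ap1 as for Barx1. Barx1 had 1.3, 1.4, 1.6 and 1.8 CPM in Ing4+/- Ing5-/- hearts, against 3.8, 2.4, 3.1 and 2.7 CPM in Ing5-/- hearts, a log2 fold change of -0.98 ± 0.23, and the interaction was -1.88 ± 0.32 (SE; edgeR adjusted p = 0.136). The interaction was called for 0 of 15785 genes by edgeR (0%; 952 or 6.03% at an unadjusted p under 0.05) and for 7 by DESeq2. The allele loss without Ing5 was called for 1 gene (0.00634%; 1064 or 6.74% at an unadjusted p under 0.05), Dpp6, a potassium channel subunit, with a log2 fold change of 1.70 there and -0.04 ± 0.22 (SE) in Ing4+/- against wild-type hearts. Genes over 15000 bases had a median of -0.13 in hearts without Ing5, and 76.0% were below 0, beside 51.1% of all genes there. At an unadjusted p under 0.05 in edgeR, 13 of the 50 were lower and 0 higher, beside 4.06% and 2.68% of all genes. Genes of this class are not independent replicates. Their index was -0.047, 0.142, -0.018 and -0.131 in Ing4+/- Ing5-/- hearts, against 0.351, 0.123, 0.072 and -0.046 in Ing5-/- hearts. That difference of -0.14, in 8 other hearts, did not exceed the spread (exact permutation test, two-sided, p = 0.257).

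Among genes that mark cell types and regions, 0 were called in Ing4+/- hearts, and the lists are described by counts and medians. For comparison with each list, 48.4% of all genes tested were below 0, with a median log2 fold change of 0.01. Fewer cells of a type and less RNA per cell cannot be told apart in bulk tissue. Of 29 cardiomyocyte genes, 26 had a fold change below 0, as 48.4% of all genes did, with a median of -0.09, and their summed level was 49025 to 50667 CPM in Ing4+/- hearts and 52065 to 56385 CPM in wild-type hearts, with no overlap. Lower at an unadjusted p under 0.05 were 3 of them, beside 2.21% of all genes. All 3 were over 15000 bases, Ryr2 and Ttn included, and the 25 genes up to that length had a median of -0.09, with 22 below 0. For the same allele loss in hearts without Ing5 the median of the 29 genes was 0.05. There Ing5-/- 1 had a summed level of 34890 CPM, against 48617 to 55977 CPM in the other Ing5-/- hearts. Myh7, the slow and embryonic ventricular myosin heavy chain, had 5200, 4667, 5076 and 5357 CPM in Ing4+/- hearts, against 6036, 6488, 5831 and 7014 CPM in wild-type hearts. The groups did not overlap, but the log2 fold change of -0.32 ± 0.20 (SE) had an unadjusted p of 0.124 in edgeR, which shares 1 estimate of the spread over all 16 hearts. Myl2, the ventricular light chain, had -0.26, the transcription factor gene Nkx2-5 had -0.25, and Tnnt2, Actc1 and Gata4 had -0.09, -0.09 and -0.02.

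Of 12 genes of the compact layer, 7 were below 0 with a median of -0.02. In hearts without Ing5 the median of these 12 genes was 0.07. Their summed level was 7351 to 7910 CPM in Ing4+/- hearts and 8446 to 9575 CPM in wild-type hearts, with no overlap. Myh7 is on this list too and made up most of the sum: without it the other members summed to 2539 to 2684 CPM in Ing4+/- hearts and 2561 to 2673 CPM in wild-type hearts, which overlapped. Mycn, which promotes growth of the myocardium, was at 67.9 to 96.5 CPM in Ing4+/- hearts and 85.8 to 101 CPM in wild-type hearts (log2 fold change -0.22 ± 0.10, SE). Of 15 trabecular genes, 11 were below 0 with a median of -0.09, and their summed level was 2639 to 3217 CPM in Ing4+/- hearts and 3092 to 3900 CPM in wild-type hearts, with overlap. In hearts without Ing5 the median of these 15 genes was 0.02. Etv1 was at 16.04 to 17.7 CPM in Ing4+/- hearts and 13.0 to 15.4 CPM in wild-type hearts, and Irx3 had a log2 fold change of -0.41 ± 0.18 (SE). None of the 3 was called, each with an edgeR unadjusted p between 0.0263 and 0.0392.

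Epicardial genes did not separate the genotypes. Of 27 genes 21 were below 0 with a median of -0.11, and their summed level was 1733 to 2145 CPM in Ing4+/- hearts and 1875 to 2080 CPM in wild-type hearts. The defining genes Wt1, Tbx18, Tcf21 and Upk3b had log2 fold changes of -0.04, 0.06, -0.11 and -0.06. Krt19, an epithelial keratin, had 37.1 to 46.2 CPM in Ing4+/- hearts and 44.7 to 53.1 CPM in wild-type hearts (log2 fold change -0.32 ± 0.12, SE; edgeR adjusted p = 0.956).

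Genes of the outflow tract and second heart field, the progenitors added to the arterial pole, were on average higher in Ing4+/- hearts. Of 14 such genes 9 were above 0 with a median of 0.24, and their summed level was 583 to 646 CPM in Ing4+/- hearts and 550.1 to 566 CPM in wild-type hearts. In hearts without Ing5 the median of the same genes was -0.21. Eya1, a transcriptional cofactor of these progenitors, had 2.63, 3.76, 2.71 and 4.75 CPM in Ing4+/- hearts, against 2.13, 1.21, 2.35 and 2.29 CPM in wild-type hearts. The groups did not overlap, and the log2 fold change was 0.80 ± 0.26 (SE; edgeR unadjusted p = 0.00658, adjusted p = 0.956). Bmp4, a ligand made in the outflow tract, had 68.7, 66.8, 56.0 and 55.9 CPM in Ing4+/- hearts, against 46.2, 41.3, 56.5 and 48.4 CPM in wild-type hearts, overlapping at wild-type 3. The progenitor gene Isl1 had a log2 fold change of 0.56 ± 0.29 (SE), and Hand2 and Fgf8 had -0.01 and -0.06.

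Hox genes pattern the trunk and pharyngeal tissue next to the heart, and of 19 listed 8 passed the filter on low counts. All 8 were above 0, with a median log2 fold change of 1.23. The filter can keep a gene through the genotype in which it is higher, so their shared sign is a description and no evidence. For the same allele loss in hearts without Ing5 the median of the 8 was -1.40. There the genes summed to 12.0, 10.9, 11.1 and 16.7 CPM in Ing4+/- Ing5-/- hearts. In Ing5-/- hearts the sums were 48.1, 14.5, 20.6 and 18.0 CPM, so Ing5-/- 1 was far above the rest. Their summed level was 14.3 to 23.6 CPM in Ing4+/- hearts and 10.9 to 15.4 CPM in wild-type hearts, with overlap. Hoxa3 had 1.01, 0.796, 0.708 and 3.01 CPM in Ing4+/- hearts, against 0.325, 0.380, 0.379 and 0 CPM in wild-type hearts, so Ing4+/- 4 was far above the rest. Without that heart its log2 fold change was 1.57 in place of 2.27, and that of Eya1 was 0.61. Ing4+/- 4 also had the highest summed level of the outflow tract genes and the Afp and Myf5 reads given above, whose part in these values was not tested. Macrophage genes were low, with a summed level of 48.6 to 52.96 CPM in Ing4+/- hearts and 39.6 to 53.1 CPM in wild-type hearts. Of 18 such genes 15 were above 0 with a median of 0.46, and 3 were higher and 0 lower at an unadjusted p under 0.05, beside 2.53% and 2.21% of all genes. Ptprc, the pan-leukocyte gene CD45, had 0.392 to 0.677 CPM in Ing4+/- hearts and 0.035 to 0.190 CPM in wild-type hearts, while the macrophage receptor gene Csf1r had 1.18 to 4.21 CPM in Ing4+/- hearts and 1.88 to 4.04 CPM in wild-type hearts.

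Endothelial genes had a median near 0. Of 16 cushion genes 11 were above 0 with a median of 0.08, and they ranged from -0.32 to 0.37. Of 24 endothelial genes 17 were below 0 with a median of -0.02, and Pecam1, Cdh5, Kdr and Tie1 lay between -0.03 and 0.01. Cldn5, a tight junction gene, had at most 5.45 CPM in Ing4+/- hearts and 2.09 CPM in wild-type hearts, with overlap, and its log2 fold change of 0.90 was 0.46 without Ing4+/- 4. Tgfb2, a ligand of cushion formation, had a log2 fold change of 0.22 ± 0.10 (SE), and the 33 BMP, TGF-beta, FGF and WNT genes had a median of 0.07. Of 26 matrix genes 18 were below 0, and 4 (Hspg2, Fbn2, Fbn1 and Lamc1) were lower at an unadjusted p under 0.05, beside 2.21% of all genes. All 4 were at least 7622 bases long. Hspg2, perlecan of basement membranes, was at 434 to 488 CPM in Ing4+/- hearts and 551 to 696 CPM in wild-type hearts.

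Genes of basic cell functions showed small shifts. Of 26 genes of oxidative phosphorylation, 23 were below 0 with a median of -0.09. Cox7a2, a subunit of cytochrome oxidase, had 72.6, 74.7, 79.7 and 64.8 CPM in Ing4+/- hearts, against 87.5, 96.0, 103 and 87.3 CPM in wild-type hearts, with no overlap (log2 fold change -0.36 ± 0.09, SE; edgeR adjusted p = 0.839). Replication genes had a median of -0.04, mitotic genes -0.05, ribosomal protein genes -0.02 and p53 targets 0.04. Hypoxia and glycolysis genes had a median of -0.05, with 23 of 25 within 1.5-fold.

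**Figure D5:**
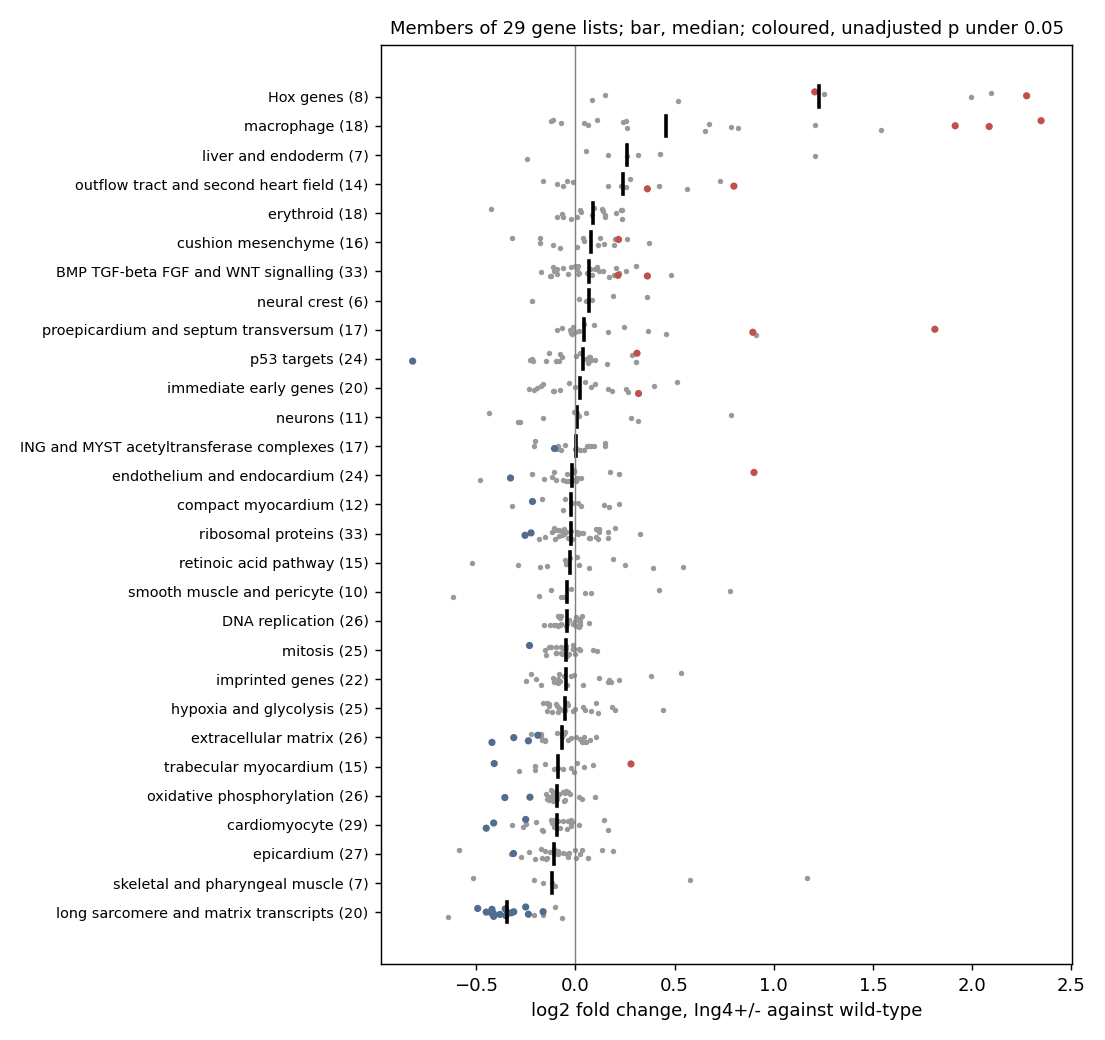
Log2 fold change (Ing4+/- against wild-type) of the members of 29 gene lists, number tested in brackets; each point is 1 gene, the bar is the list's median, and coloured points have an unadjusted p under 0.05 (red higher, blue lower). No member was called; the list of long sarcomere and matrix transcripts, put together with the length pattern known, lies lowest at -0.35, and the Hox genes highest at 1.23.

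The targeted allele can carry linked sequence of the strain in which it was made, so genes near Ing4 were read separately. Within 10 Mb of Ing4 on chromosome 6, 162 other genes were tested and 0 were called. At an unadjusted p under 0.05, 4 were higher and 2 lower (3.70%, beside 4.74% of all genes), and 9 had no overlap between the genotypes (5.56%, beside 3.78%). Scnn1a, an epithelial sodium channel gene 0.274 Mb from Ing4, had a log2 fold change of 0.59 ± 0.23 (SE), and Grcc10, on the other side of Ing4, had -0.23 ± 0.10 (SE; both edgeR adjusted p = 0.956).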

How the data were processed

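RNA of 16 embryonic hearts (total RNA, column kit, stranded libraries per the labels) was given as whole-number counts of reads per gene, deposited as 1 series table and 16 single-sample tables that were all equal to it; 0 columns of values per sample were left unused. The length of each gene model in bases (other) came from the same deposited table. Reads were assigned with featureCounts on mm10 after bcl2fastq, per the submitters' processing notes, which name no versions; aligner and annotation: not given in the sources used here. Symbols and positions came from a RefSeq table of GRCm38.p6 by gene ID (25275 of 27179 IDs, 93.0%; the others held 2.08% of reads). Transcript lengths used as an alternative came from GENCODE M21.

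In R 4.3.3, edgeR 4.0.16 fitted 4 group means to all 16 libraries (19753100 to 35664331 reads) with TMM scaling (factors of 0.967 to 1.08) after its filter on low counts, which kept 15785 genes. The call threshold was 0.05 on two-sided p-values adjusted by Benjamini-Hochberg. Standard errors came from the fit's weights and moderated variance, and 95% intervals from the t distribution. The biological coefficient of variation was 0.159. The p-values measure the spread between embryos, some of which shared a litter. Pairs of libraries of 1 genotype differed by more than counting error (chi-square per degree of freedom of 6.68 or more). Fits were run on simulated counts for genes of at least 1 CPM, with no litters and no heart that stood apart. That run does not cover genes under 1 CPM or such hearts. Samples were grouped by genotype label.

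Named genes were Ing4, Ing5, called genes, the 10 higher and 10 lower genes with the smallest p and a mean of at least 1 CPM, and the member of each list with the smallest p. Some of these are not reported here. Other genes were named after their values were seen. The part of the series, the 30 gene lists and the tests were chosen with earlier results of these data known. Alternatives were the DESeq2 1.42.0 Wald test, DESeq2-type size factors (RLE scaling, computed and fitted in edgeR) and limma-voom 3.58.1. Further ones were other filters, the 8 hearts alone, litter or replicate number as a block, a covariate of Y-linked expression and each library left out. Chosen later, after seeing the data, were leaving out 3 libraries together, a gene length offset, GENCODE lengths and the class over 15000 bases.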

Additional observations from a re-analysis of the deposited data

Results flagged for a closer look

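Of 104 groups of 4 hearts checked for a single heart far from the other 3, 9 stood out, and chance gives about 1 in 20. In Ing4+/- 4, Th was at 7.41 CPM against 1.69 to 2.64 CPM in the other Ing4+/- hearts, Hoxa3 was at 3.01 CPM against 0.708 to 1.01 CPM, Rrm2b, a p53 target, was at 40.5 CPM against 31.8 to 33.0 CPM, and Cenpf, a kinetochore gene, was at 159.8 CPM against 122 to 126 CPM. In Ing4+/- 3, Krt19 was at 46.2 CPM against 37.1 to 37.4 CPM in the other Ing4+/- hearts.

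Among wild-type hearts, the library labelled wild-type 2 had 28.2 CPM of Ing4 against 42.6 to 44.4 CPM in the other 3. Wild-type 1 had 85.8 CPM of Mycn against 99.2 to 101 CPM. Wild-type 4 had 0 CPM of Hoxa3 against 0.325 to 0.380 CPM, and 7.38 CPM of the adult-type globin gene Hbb-bs against 11.6 to 12.4 CPM.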

How the results depend on the processing

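The number of genes called, 0 between Ing4+/- and wild-type hearts, was also 0 with DESeq2-type size factors in edgeR, both other filters, limma-voom, the litter block and the Y-linked covariate. It was 1 with only the 8 hearts compared, 3 with the DESeq2 Wald test, 1 with the gene length offset (Cdk2ap1), 2 without the 3 libraries that stood apart (Cdk2ap1 among them), and 0 to 1 with each library left out: 1 without Ing4+/- 4 (Cdk2ap1), Ing5-/- 1 or Ing5-/- 4 (Dst). For Ing4+/- Ing5-/- against Ing5-/- hearts the 1 call became 19 with the DESeq2 Wald test, 0 with the litter block and 1 to 2 with a library left out. For the interaction it was 7 with the DESeq2 Wald test and 0 to 1 with a library left out, the 1 (Cdk2ap1) without Ing4+/- 4. The cause was not tested. Replicate numbers did not pair the hearts (correlations of -0.093 to 0.040), and the replicate block gave 0 calls and a log2 fold change of -0.21 for Ing4. Hearts that shared a litter had higher correlations, 0.140 for Ing4+/- 2 with wild-type 1 and 0.112 for Ing4+/- 3 with wild-type 4. The main fit had no term for litter.

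With a library left out, the log2 fold change of Ing4 ran from -0.35 to -0.15, that of Ing5 from 0.08 to 0.20, the genes placed within 1.5-fold from 10534 to 11373 and their share by interval from 64.4 to 69.9%. With the litter block the count was 9842 and the share 60.7%, and with no filter on low counts they were 10917 and 50.8%. The 11 leading lower genes over 10000 bases were 22 with only the 8 hearts, 16 with the litter block and 30 without the 3 libraries, and the 28 in the shortest quintile were 17, 14 and 12. The length index difference of 0.08 ran from 0.04 to 0.11 and was -0.21 for genes over 15000 bases. The median length of the lower leading genes was 2620 bases with GENCODE transcripts, which 40 of 50 had. Of the 46 other genes chosen by the naming rule under 27 settings, 3 values reversed: Ednra (-0.0014) and Hbb-bs (0.30) with the litter block, and Rarg (0.015, and -0.26 without wild-type 1) without the library labelled wild-type 2. The litter block rests on 2 litters that held both genotypes. Depth limits the genes under 1 CPM.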
